A study of Homo sapiens with 28 samples.

Results

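The loci described here are those of CDK4, HMGA2 and MDM2, 3 genes on the long arm of chromosome 12, read in 14 lists of H3K27ac peaks from SW872 cells. H3K27ac is an acetylation of histone H3 found at active promoters and enhancers, and SW872 is an established human liposarcoma cell line. A peak belonged to a locus when it overlapped the gene body on hg19 (GRCh37) widened by 50 kb on each side, and 511 of the 654580 peaks in the 14 lists did so. The CDK4 window (chr12:58091510-58196230) held 90 of them, the HMGA2 window (chr12:66168240-66410071) held 401 and the MDM2 window (chr12:69151971-69289320) held 20.

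CDK4 is the cyclin D-dependent kinase that phosphorylates the retinoblastoma protein, MDM2 is the ubiquitin ligase that turns over p53, and HMGA2 is an architectural protein that binds AT-rich DNA and is mostly expressed in the embryo. The 3 genes are often amplified together in well-differentiated and dedifferentiated liposarcoma, where they act on the cell cycle, on the p53 response and on chromatin. Extra copies of a locus yield extra reads in every sequencing library, so a ChIP peak over an amplified gene is read against its local background, and acetylation and copy number are separate quantities.

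By their labels the 14 libraries form 7 pairs, all from SW872 cells stably transduced with a Flag-tagged construct in a retroviral vector carrying neomycin resistance. The cells carried the TAZ-CAMTA1 fusion, the YAP-TFE3 fusion, the constitutively active TAZ4SA or YAP5SA, full-length CAMTA1 or TFE3, or the empty vector. Per the labels the cells were near confluence at collection, apart from the CAMTA1 cells, which were below it, an exception that the ChIP methods do not give. The methods call the 2 libraries of a group biological duplicates. The construct was expressed in addition to the cells' own YAP and TAZ, and 14 inputs that the labels also name were not used here. A construct is written in every peak name as well, and it differed from the label in 14 of 14 lists. Lists labelled empty vector were named CAMTA1, those labelled TAZ4SA were named empty vector, those labelled TAZ-CAMTA1 were named TAZ4SA, and those labelled CAMTA1 were named TAZ-CAMTA1. Lists labelled YAP5SA were named TFE3, those labelled YAP-TFE3 were named YAP5SA, and those labelled TFE3 were named YAP-TFE3. Groups below are those of the labels, the same pairs of lists stand together under either naming, and the contrasts of density between constructs are given under both. The lists held 5721 to 102009 peaks (median 45074). The shortest was TFE3 replicate 1, and the longest were TAZ4SA replicate 1 and TAZ4SA replicate 2 with 98992 peaks. Limits that moved by over 1.5 times without the shortest list or without the TAZ4SA lists are given again further on.

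All 3 windows held a peak in 14 of 14 lists, and so did the 5′ end of each gene, taken as the first base of the gene widened by 1 kb on each side. On chromosome 12, 14.4% of the windows of the length of the CDK4 window, laid end to end, held a peak in all 14 lists. The shares were 26.3% for the longer HMGA2 window and 17.9% for the MDM2 window. Of the 7112 regions made by merging overlapping peaks of all lists on chromosome 12, 3.11% were present in all 14 lists. The 5′ end regions of the 3 genes were among that 3.11%. Of the merged regions, 55.4% were found in a single list, and most are not known to be 5′ ends of genes. The share of other gene 5′ ends with a peak in all lists was not examined.

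The sequences in front of the starts of CDK4 and MDM2 are shown because in all lists a peak lay within 1 kb of each 5′ end. At CDK4 the strongest such peak lay inside the gene, and no list had a peak over the first base. They are the 250 bases upstream of the start on the coding strand, from RefSeq on GRCh38.p14, a later build than that of the peak lists, so no peak was placed on them base by base. CDK4 lies on the minus strand (chr12:57752311-57752560, GRCh38.p14). MDM2 lies on the plus strand and is given at its outer start (chr12:68807922-68808171) and at its inner start (chr12:68808767-68809016), from which p53 is known to drive the gene. The promoter sequences used here hold no entry for HMGA2, so its sequence, motifs and GC content are not given. Capitals mark the E-box CACGTG, the site read by TFE3 and related factors, the GC box GGGCGG and the AP-1 site TGANTCA, searched on both strands together with the TEAD site GGAATG.
CDK4: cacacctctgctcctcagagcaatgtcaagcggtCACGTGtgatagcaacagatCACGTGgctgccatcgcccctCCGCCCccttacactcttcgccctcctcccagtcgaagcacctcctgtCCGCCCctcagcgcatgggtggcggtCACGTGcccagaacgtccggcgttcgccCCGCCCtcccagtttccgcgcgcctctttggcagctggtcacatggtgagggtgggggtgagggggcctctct
MDM2 outer start: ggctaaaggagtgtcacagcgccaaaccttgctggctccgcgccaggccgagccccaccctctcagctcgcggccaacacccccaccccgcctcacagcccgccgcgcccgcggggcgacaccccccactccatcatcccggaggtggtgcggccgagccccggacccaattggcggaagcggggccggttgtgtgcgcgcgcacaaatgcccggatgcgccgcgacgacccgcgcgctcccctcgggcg
MDM2 inner start: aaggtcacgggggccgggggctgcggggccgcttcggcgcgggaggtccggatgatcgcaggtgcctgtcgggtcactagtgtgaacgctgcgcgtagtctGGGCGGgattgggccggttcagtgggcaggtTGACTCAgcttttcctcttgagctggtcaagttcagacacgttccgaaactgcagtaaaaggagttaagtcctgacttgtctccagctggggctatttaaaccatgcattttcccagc
The CDK4 sequence held 3 E-boxes and 3 GC boxes, neither overlapping the other. The inner MDM2 sequence held 1 GC box and 1 AP-1 site, and the outer MDM2 sequence held none of the 4 motifs. Among the 35116 promoter sequences of the same length in that table, 6.34% held an E-box, 42.6% a GC box, 6.57% an AP-1 site and 11.9% a TEAD site. The GC content was 65.6% for CDK4, 74.4% for the outer MDM2 sequence and 59.2% for the inner one. A match is a description of the letters and was not tested as a binding site.

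**Figure D1:**
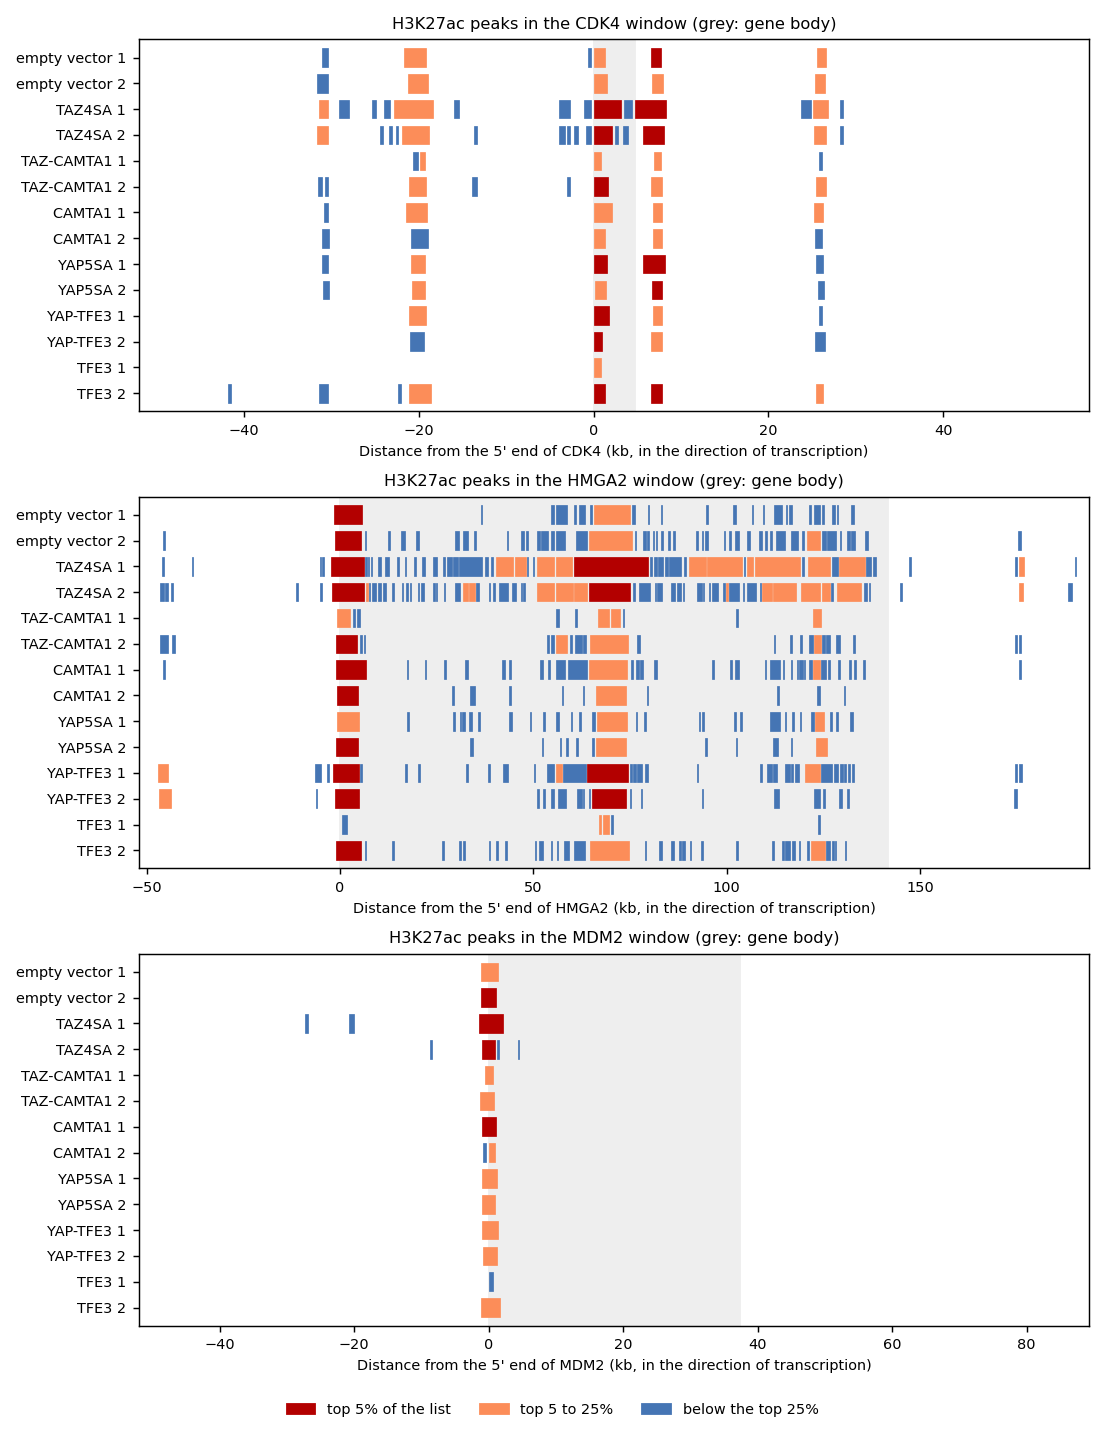
Peaks of the 14 lists (rows, by label and replicate) in the CDK4, HMGA2 and MDM2 windows, drawn at their distance in kb from the 5′ end of the gene in the direction of transcription, with the gene body in grey. Colour gives the rank of the peak in its own list by −log10 p: HMGA2 carried 5 to 62 peaks spread along its body, CDK4 carried 1 to 16 peaks on both sides of the gene, and MDM2 carried 1 to 4 peaks, in 11 lists a single one at its 5′ end, with the others from 27.2 kb upstream to 4.6 kb inside the gene.

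HMGA2 had the most peaks and the largest covered length of the 3 loci. In the full lists its window held 5 to 62 peaks per list (median 27), which with 0.5 added to each count was 4.04 to 10.7 times the density of the rest of chromosome 12 (median 6.43, n = 14 lists). It stood above 1 in 14 of 14 lists. Of the 552 windows of this length laid end to end on chromosome 12, 0.543% (3 windows) had a median density ratio at or above that of HMGA2. The peaks lay inside the gene. Of the 401 peaks, 369 had their summit in the gene body of 141832 bp, 18 in the 50 kb upstream and 14 in the 50 kb downstream. The body held more peaks per kb than either flank in 14 of 14 lists.

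Peaks covered a median of 22.8% of the HMGA2 body (3.38% to 76.6%). In the empty vector lists they covered 32.7 kb and 57.5 kb of it. In the TAZ4SA lists they covered 109 kb and 86.6 kb. The TAZ4SA lists were the highest and did not overlap the other 12 lists, of which empty vector replicate 2 was the next. Of the windows of the length of the HMGA2 body with a peak in all 14 lists, 80.9% showed the same. In the TAZ-CAMTA1 lists the covered length was 13.5 kb and 30.5 kb, and in the CAMTA1 lists 44.1 kb and 17.8 kb. YAP5SA lists gave 31.9 kb and 19.9 kb, YAP-TFE3 lists 47.7 kb and 25.2 kb, and TFE3 lists 4.80 kb and 39.8 kb. The longest lists had the most of the body covered and the shortest list the least. The share covered was therefore set against the rest of chromosome 12 in the same list. By that ratio the HMGA2 window was covered 4.98 to 12.7 times as much as the rest of the chromosome (median 7.15), and the TAZ4SA lists, at 7.18 and 7.31, lay close to the median.

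**Figure D2:**
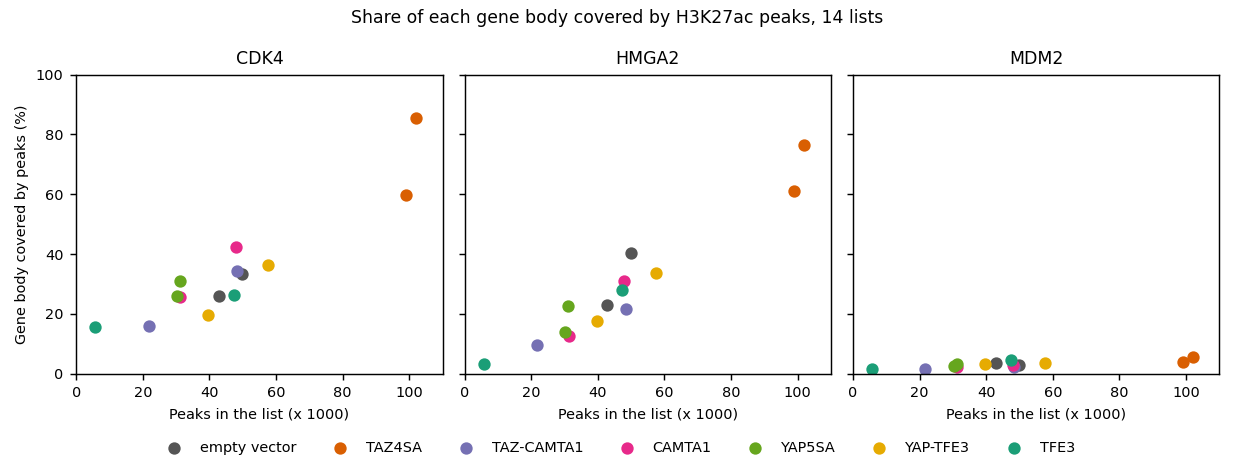
Share of each gene body covered by peaks (vertical axis, %) against the number of peaks in the list (horizontal axis, in units of 1000), 1 point per list, coloured by label. For HMGA2 the share runs from 3.38% in the list of 5721 peaks to 76.6% in the list of 102009, while for MDM2 it stays between 1.53% and 5.75%.

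Of the 50 merged regions of the HMGA2 window, 3 had a peak in all 14 lists and 24 were found in a single list, as were 55.4% of the merged regions of chromosome 12. The first lay at the 5′ end (chr12:66215871-66225828, hg19), from 2.4 kb upstream to 7.6 kb downstream of it. On GRCh38 HMGA2 overlaps the pseudogene RPSAP52, which is transcribed and was not placed on the lists. A second region (chr12:66274011-66298878) began 55.8 kb into the gene and spanned 24.9 kb, which made it the region of length rank 19 among the 7112 of the chromosome. The last of them (chr12:66323420-66355613) began 105.2 kb into the gene and spanned 32.2 kb, at length rank 10. Merged over lists, such regions are longer than any single peak. Beyond the coordinates of the 3 gene bodies no annotation of hg19 was used here, and the regions are given by distance rather than by exon or intron.

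In the second region peaks covered between 2763 bp (TFE3 replicate 1) and 23887 bp (TAZ4SA replicate 1), and the best peak there ranked between the top 2.12% and the top 16.4% of its list (median 7.61%). In YAP-TFE3 replicate 1 and TFE3 replicate 1 the best peak of the whole window lay in this region, 67403 bp and 68238 bp from the 5′ end, and in the other 12 lists it lay at the 5′ end. The last region was weaker. Its best peak ranked from the top 7.76% to the top 90.2% (median 18.7%). Between and beside them stood 3 further regions, at 29.0 kb to 36.7 kb, at 51.0 kb to 55.5 kb and at 90.2 kb to 104.0 kb from the 5′ end, with peaks in 10, 11 and 11 lists and median ranks of 59.5%, 47.7% and 50%. The best peak stood in the upper 50% of its list in 2 of 10, 7 of 11 and 6 of 11 lists, respectively.

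Other HMGA2 regions, 11 of the 50, were present in both lists of at least 1 label and absent from both lists of at least 3 others, as were 20.4% of the merged regions of chromosome 12. The 3 given were taken by number of lists, with ties by median rank. A region 4.6 kb to 6.6 kb upstream of the 5′ end (chr12:66211661-66213595) had peaks in both TAZ4SA and both YAP-TFE3 lists and in no list of the other 5 labels. A region 82.1 kb to 83.6 kb into the gene had peaks in both empty vector lists, both TAZ4SA lists and 1 TFE3 list. Another, 174.4 kb to 175.1 kb from the 5′ end and so beyond the 3′ end, had peaks in both YAP-TFE3 lists, 1 TAZ4SA list and 1 TAZ-CAMTA1 list. Median ranks of these regions were 50.8%, 74.2% and 50.9% and the best peak was in the upper 50% of its list in 2 of 4, 1 of 5 and 2 of 4 lists. They were chosen for this pattern and got no test.

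The HMGA2 5′ end peak was both wide and high in its list. It spanned 1477 bp to 8514 bp (median 6401 bp), and was among the widest 0.892% to 5.58% of the peaks of its list (median 1.62%). Enrichment at its summit over the local background was 5.23-fold to 61-fold (median 18.4). The summit lay 791 bp to 1799 bp inside the gene. By −log10 p it ranked 240 of 102009 and 141 of 98992 in the TAZ4SA lists. In the empty vector lists it ranked 478 of 42841 and 496 of 49855. These 4 lists were the lowest of the 14 in rank, those of TAZ4SA being the lower. In CAMTA1 lists the ranks were 875 and 1364, and in TAZ-CAMTA1 lists 2036 and 1205. YAP5SA lists gave 2186 and 1121, YAP-TFE3 lists 2003 and 1073, and TFE3 lists 1850 and 1022. Outside the empty vector and TAZ4SA labels, the range of ranks of each label overlapped that of every other.

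**Figure D3:**
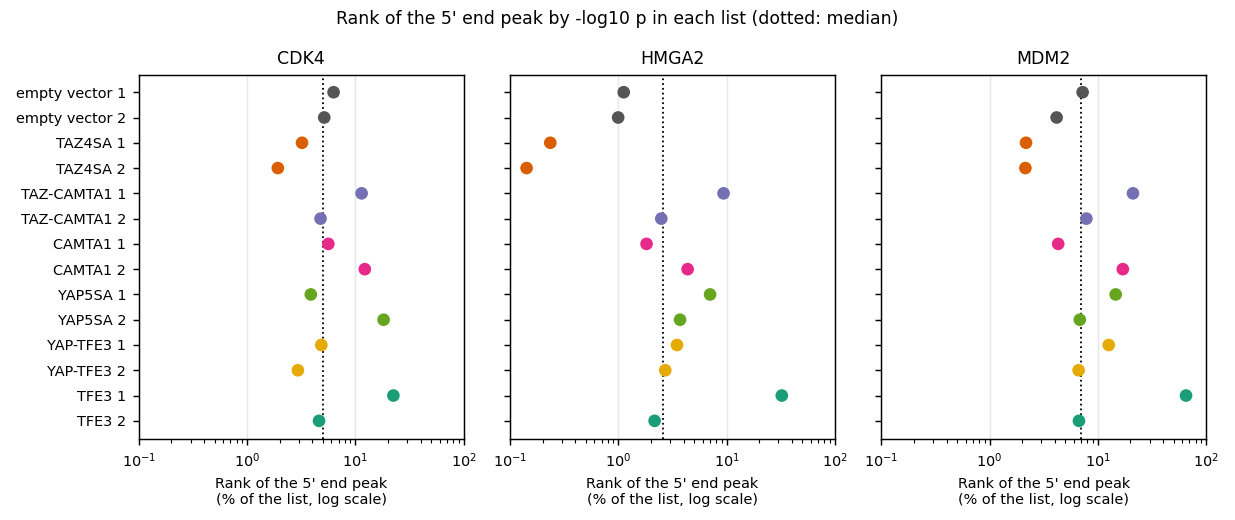
Rank of the 5′ end peak of each gene as a percent of its list (horizontal axis, log scale, 1 point per list, coloured by label), with the median over the 14 lists dotted at 5% for CDK4, 2.60% for HMGA2 and 7.02% for MDM2. The TAZ4SA points of HMGA2, at 0.235% and 0.142%, stand left of all others, and TFE3 replicate 1 is the rightmost point in each panel.

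As a percent of the list, the HMGA2 5′ end peak stood at the top 0.235% and 0.142% in the TAZ4SA lists and at the top 0.995% to 32.3% in the other 12. A long list lowers such a percent for any strong peak. Among the 221 regions of chromosome 12 with a peak in all 14 lists, 43.9% had a lower percent in both TAZ4SA lists than in every other list, and the 5′ ends of HMGA2 and MDM2 were among them. By rank number, which does not divide by the length of the list, 5.43% of these regions (12 of 221) did so, and of the 3 genes HMGA2 was among them. The highest rank number of the TAZ4SA lists was 240 and the lowest of the others was 478. These lists carry the name of the empty vector in their peaks, so that the pattern belongs to 1 pair of lists whose construct the labels and the names give differently.

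CDK4 had an acetylated 5′ end in a neighbourhood of other peaks. Its window held 1 to 16 peaks per list (median 5), at 1.96 to 6.31 times the density of the rest of chromosome 12 (median 4.08, above 1 in 14 of 14 lists). Of the 1276 windows of this length, 7.52% had a median density ratio as high or higher. CDK4 itself is 4721 bp long. With the summit as the position, 17 of the 90 peaks fell in the gene body, 44 in the 50 kb upstream and 29 in the 50 kb downstream, so that most peaks of this window lay outside CDK4. On GRCh38 the gene overlaps TSPAN31, and AGAP2 and OS9 on one side and MARCHF9, CYP27B1 and METTL1 on the other are its neighbours.

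The CDK4 5′ end region (chr12:58143122-58146213) ended 0.017 kb short of the first base of the gene. The strongest peak there spanned 730 bp to 3084 bp (median 1348 bp) with a summit 215 bp to 488 bp inside the gene, and no list had a peak over the first base itself. In 3 lists, both of TAZ4SA and empty vector replicate 1, a second and smaller peak lay 0.3 kb to 1.1 kb upstream. The strongest peak had a fold enrichment of 6.50 to 31.2 (median 13.8). Its rank was 3270 and 1898 in the TAZ4SA lists, which was the top 3.21% and 1.92%. In the empty vector lists it was 2692 and 2570, the top 6.28% and 5.15%. TAZ-CAMTA1 lists had it at 2489 and 2304, the top 11.4% and 4.76%, and CAMTA1 lists at 2696 and 3811, the top 5.62% and 12.2%. In rank number the TAZ4SA pair overlapped the empty vector, TAZ-CAMTA1 and CAMTA1 pairs, which did not overlap one another. The ranks were 1203 and 5492 in YAP5SA lists (top 3.87% and 18.2%), 2784 and 1165 in YAP-TFE3 lists (top 4.84% and 2.94%), and 1282 and 2180 in TFE3 lists (top 22.4% and 4.61%). By rank number the YAP5SA replicates were the farthest apart within a label, and by percent the TFE3 replicates were.

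In 9 of 14 lists the 5′ end peak was also the best peak of the CDK4 window. Elsewhere the best peak was 7211 bp to 7324 bp past the 5′ end in 4 lists, beyond the 3′ end of CDK4, and in TAZ-CAMTA1 replicate 1 it was 19.5 kb upstream. The region past the 3′ end (chr12:58137984-58141456) had peaks in 13 lists and a median rank of 8.30%. Regions 18.3 kb to 22.8 kb upstream and 25.1 kb to 26.8 kb past the 5′ end had peaks in 13 lists each as well, with median ranks of 15.8% and 24.5%, and one 30.3 kb to 31.6 kb upstream had peaks in 10 lists with a median rank of 44.9%. TFE3 replicate 1, the shortest list, was the list without a peak in the 3 regions found in 13. Regions seen in both lists of 1 label and in few others were those of TAZ4SA. They lay, among others, at 3.3 kb to 4.5 kb inside the gene, at 0.3 kb to 1.1 kb upstream and at 2.7 kb to 3.9 kb upstream. Those 3 were found in 2, 3 and 3 lists, and 2 more, 28.1 kb to 28.6 kb past the 5′ end and 23.1 kb to 23.9 kb upstream, in the TAZ4SA lists alone. Of the 18 regions of the window, 9 were found in TAZ4SA lists alone, the longest lists, against 49.9% of the merged regions of chromosome 12.

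MDM2 carried 1 acetylated region at its 5′ end and little else. In 11 of 14 lists its window held a single peak, and the other 3 held 2, 3 and 4. With 0.5 added to each count, the density was 0.499 to 4.81 times that of the rest of chromosome 12 (median 0.695). It was above 1 in 3 of 14 lists. The 0.5 added raises the ratio where a window holds 1 peak. In TAZ-CAMTA1 replicate 1 the ratio was 1.29, although 7.28 peaks per Mb stood against 8.43 on the rest. Without TFE3 replicate 1, where 1 peak in the window stood against 302 on the rest of the chromosome, the range was 0.499 to 1.54 and 2 of 13 lists were above 1. Of the 973 windows of this length, 43.8% had a median density ratio as high or higher, so the MDM2 window was near the middle of the chromosome. No list had a peak with its summit in the 50 kb downstream, and 3 lists had 1 or 2 in the 50 kb upstream. The 4 regions besides that of the 5′ end were each found in 1 TAZ4SA list and ranked from the top 59.3% to the top 94.9%. The single broad peak left most of MDM2's body of 37350 bp without a peak, with 1.53% to 5.75% covered (median 3.21%).

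The MDM2 5′ end region (chr12:69200517-69204116) spans the first base of the gene, with a peak over that base in 12 of 14 lists and beside it in CAMTA1 replicate 2 and TFE3 replicate 1. The peak was 570 bp to 3600 bp wide (median 2135 bp), with its summit 150 bp to 474 bp inside the gene (median 244 bp) and a fold enrichment of 4.50 to 35.9 (median 13.1). In the TAZ4SA lists it ranked 2211 and 2116, the top 2.17% and 2.14%. In the empty vector lists it ranked 3099 and 2075, the top 7.23% and 4.16%. TAZ-CAMTA1 lists gave 4596 and 3788, the top 21.1% and 7.83%. In rank number the TAZ4SA and empty vector pairs overlapped and the TAZ-CAMTA1 pair lay above both, and by percent the TAZ4SA pair lay below all others. The CAMTA1 ranks were 2061 and 5321 (top 4.30% and 17.0%) and the YAP5SA ranks 4528 and 2059 (top 14.6% and 6.81%). The YAP-TFE3 ranks were 7243 and 2633 (top 12.6% and 6.64%) and the TFE3 ranks 3728 and 3166 (top 65.2% and 6.69%). The YAP-TFE3 replicates lay the farthest apart of the 7 pairs in rank number.

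**Figure D4:**
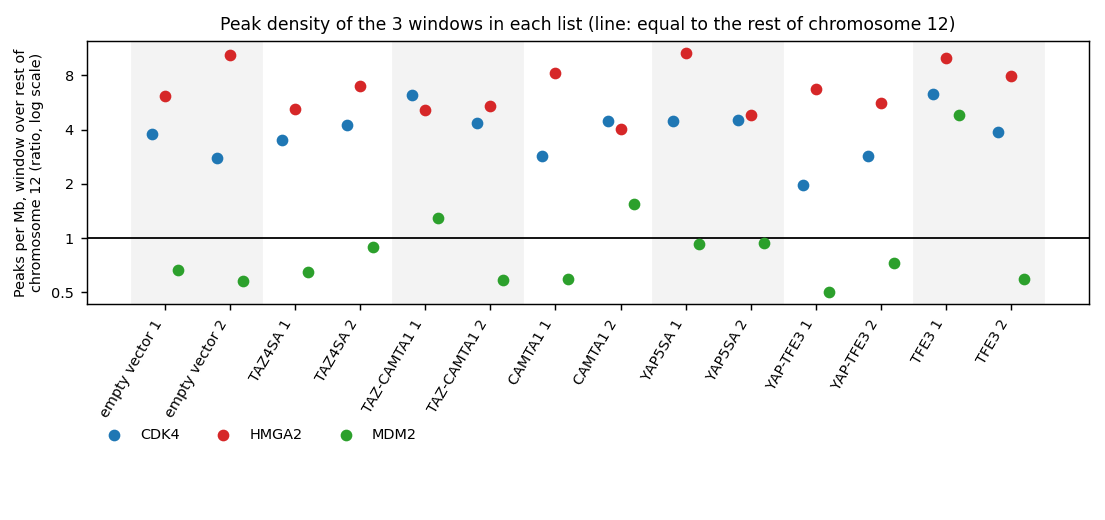
Peaks per Mb of the full lists in each window divided by peaks per Mb on the rest of chromosome 12 (vertical axis, log scale, 0.5 peaks added to each count), 1 point per gene and list. HMGA2 is the highest point in 12 of 14 lists, and MDM2 is the lowest in 14 of 14 and below the line at 1 in 11 of them.

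In the full lists the order of the loci varied little. By density HMGA2 came before CDK4 and CDK4 before MDM2 in 12 of 14 lists, and in TAZ-CAMTA1 replicate 1 and CAMTA1 replicate 2 CDK4 came first. By the rank of the best peak, HMGA2 came first in 13 of 14 lists, and the order HMGA2, CDK4, MDM2 held in 10. Without TFE3 replicate 1 these counts were 11, 12 and 9 of 13 lists, and without the TAZ4SA lists 10, 11 and 9 of 12. Against windows of the same length, 6.16% had a best peak with a median rank as high as that of HMGA2, 5.41% as high as that of CDK4 and 10.9% as high as that of MDM2. The 3 windows differ in length, and a longer window has more room for a strong peak, so these shares rather than the raw ranks compare the genes.

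Several limits given above rest on the shortest list or on the longest ones. Without TFE3 replicate 1 the HMGA2 window held at least 10 peaks, with at least 9.52% of the body and 6796 bp of its second region covered. It then had a 5′ end peak at least 3374 bp wide, at least 10.5-fold enriched and ranked no lower than the top 9.36%, and the best peak of its last region ranked no lower than the top 46.3%. The CDK4 window then held at least 4 peaks. At MDM2 the 5′ end peak was then at least 899 bp wide and ranked no lower than the top 21.1%. Without the TAZ4SA lists at most 40.5% of the HMGA2 body was covered, its 5′ end peak was at most 25.3-fold enriched and ranked at best at the top 0.995%, and the best peak of its second region ranked at best at the top 3.27%. At CDK4 the window then held at most 8 peaks, with a 5′ end peak at most 1990 bp wide, at most 18.2-fold enriched and ranked at best at the top 2.94%. At MDM2 the window then held at most 2 peaks, and its 5′ end peak was at most 18.5-fold enriched and ranked at best at the top 4.16%.

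With each list cut to its 5721 strongest peaks, the length of the shortest list, a peak remained in the HMGA2 and CDK4 windows in 14 of 14 lists and in the MDM2 window in 13 of 14. HMGA2 then held 2 to 5 peaks covering 4.80 kb to 27.6 kb (median 16.1 kb), and at least 10.4 kb without TFE3 replicate 1. CDK4 held 1 to 3 peaks covering 0.730 kb to 6.56 kb (median 3.08 kb), and at least 1.99 kb without TFE3 replicate 1. MDM2 held at most 1, covering up to 3.6 kb (median 2.08 kb). YAP-TFE3 replicate 1, where the MDM2 peak ranked 7243, was the list in which that window was empty. The order by density was not that of the full lists. In peaks per kb CDK4 stood above HMGA2 in 13 of 14 lists, all but TFE3 replicate 1, while in the share of the window covered HMGA2 stood above CDK4 in 14 of 14. HMGA2 stood above MDM2 by both measures in 14 of 14 lists, but with 0.5 added to each count, as in the density ratio, MDM2 stood above HMGA2 in 9 of 14. Against the rest of chromosome 12 in the same strongest peaks, with 0.5 added to each count, the density was 6.31 to 15.7 times as high at CDK4 (median 11.5) and 4.63 to 10 at HMGA2 (median 5.08). No such ratio is given for MDM2, since with at most 1 peak a list it is set by the 0.5 added.

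In the study H3K27ac peaks served to mark active enhancers among the sites bound by the constructs. Whether the peaks at each locus differed with the construct was put here as 4 tests, 12 in all, adjusted together by the Benjamini-Hochberg method. None had an adjusted p under 0.05, and 1 had an unadjusted p under it. That was the rank of the best peak of HMGA2, for which the labels accounted for 83.4% of the variance of log2 rank percent (exact one-sided permutation test over the 135135 ways to pair 14 lists, p = 0.0276, adjusted p = 0.332). The TAZ4SA lists had a mean log2 rank percent of −2.45 ± 0.51 (SD, n = 2) and the empty vector lists 0.08 ± 0.12, and the other 5 labels had means of 1.49 to 2.57. For CDK4 and MDM2 the labels accounted for 38.8% and 56.8% of the variance of the same measure, with adjusted p of 0.760 in both by the exact permutation test. For the density ratio they accounted for 68.3% at CDK4, 35.1% at HMGA2 and 32.0% at MDM2, with adjusted p of 0.729, 0.760 and 0.839. As shares of 1, these moved by over 1.5 times without some single lists, the best rank of CDK4 to 0.73 without TFE3 replicate 1 and 0.83 without TFE3 replicate 2, the density of MDM2 to 0.79 without TFE3 replicate 2, and the density of HMGA2 to 0.54 without CAMTA1 replicate 1 and 0.57 without YAP5SA replicate 2. The list that is then alone in its label adds no spread within it. A share of variance is read against other pairings of the lists. With all 14 lists, 86155 of the 135135 pairings accounted for at least as much as the labels for the best rank of CDK4. For density, 94094 did so at HMGA2 and 113313 at MDM2. In these cases most pairings did as well as the labels.

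In density, constructs and empty vector differed by less than their spread. The mean log2 density ratio of the 12 construct lists minus that of the 2 empty vector lists was 0.29 at CDK4 (1.98 against 1.69), −0.31 at HMGA2 (2.69 against 3) and 0.57 at MDM2 (−0.12 against −0.69). Exact two-sided permutation tests over 91 splits, whose smallest possible p is 0.0110, gave adjusted p of 0.760 for each. Under the construct named in the peaks the same differences were −0.02, 0.16 and 0.23, with adjusted p of 0.989, 0.884 and 0.884. The fusions minus the active forms gave −0.25 at CDK4, −0.21 at HMGA2 and −0.22 at MDM2 by the labels (exact permutation test over 70 splits, adjusted p = 0.760 for each). By the names in the peaks they gave 0.26, 0.33 and 0.82 (exact permutation test, adjusted p = 0.884 for each). The direction of the fusion contrast thus turned with the naming at all 3 loci, and no direction is given for it.

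**Figure D5:**
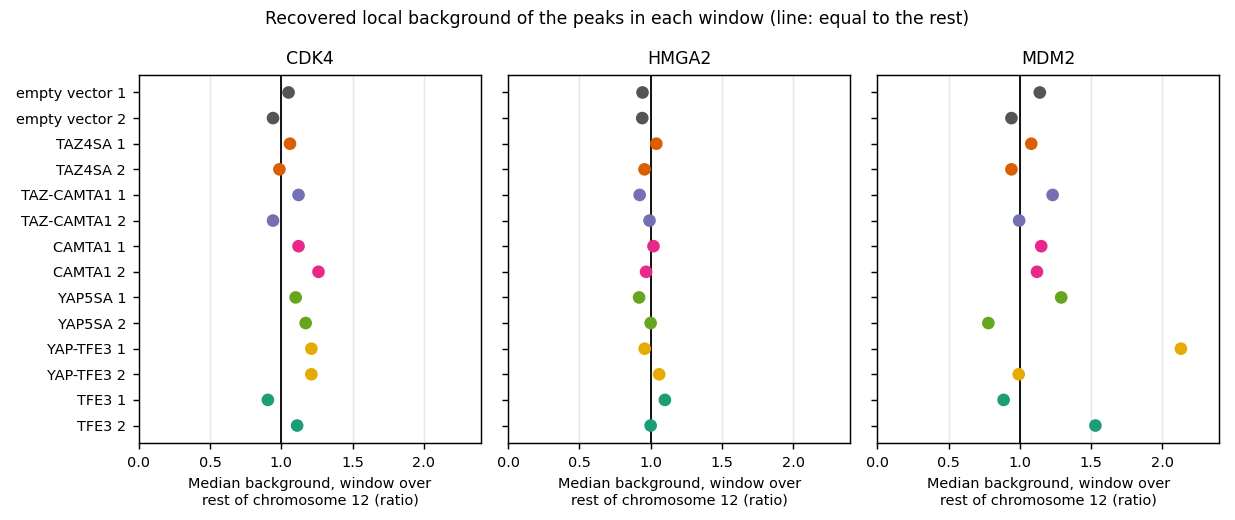
Median local background of the peaks in each window divided by the median of the peaks on the rest of chromosome 12 in the same list (horizontal axis, ratio), 1 point per list, coloured by label. Most points lie close to the line at 1, and the farthest is MDM2 in YAP-TFE3 replicate 1 at 2.13, from a single peak.

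The local background under the peaks was recovered from the fold enrichment and the p-value that the peak caller printed for each summit, which together fix the fragment count and the background it was compared with. In the HMGA2 window the median background was 0.919 to 1.10 times that of the rest of chromosome 12 (median 0.980 over 14 lists). CDK4 gave 0.905 to 1.26 (median 1.10), and MDM2 gave 0.779 to 2.13 (median 1.10), in most lists from 1 peak. In the median list, 55.9% of the peaks on the rest of the chromosome had a background at or above that of the HMGA2 window, 38.0% at or above that of CDK4 and 36.2% at or above that of MDM2. Thus the 3 windows lay within the ordinary range of the chromosome. The highest MDM2 value, 5.66 fragments in YAP-TFE3 replicate 1 against 2.67 on the rest, was not seen in the other list of that label (2.31 against 2.32).

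Peaks at the lowest background of their list, which the caller uses where the local level is lower, made up a median of 18.4% of the HMGA2 peaks and 22.5% of the CDK4 peaks, against 22% on the rest of chromosome 12. A local level below that floor is not visible in these values, and copy number was not measured. Between the CDK4 and MDM2 windows, outside that of HMGA2, the 10.7 Mb of the same arm held 0.789 to 1.17 times as many peaks per Mb as the remaining chromosome (median 0.897) with a background 0.907 to 1.06 times as high (median 0.998). Other genes of this arm were not placed on the lists, since the gene table used here is of another build.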

How the data were processed

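H3K27ac ChIP-seq libraries of SW872 cells were read as 14 peak lists. Per the methods and the labels, the authors removed adapter sequence and low-quality ends, mapped the reads with BWA-MEM to hg19 (GRCh37), left out reads that map to several places as well as greylist regions, and ran MACS2 in its paired-end mode for narrow peaks. The labels describe a Flag antibody in the protocol and H3K27ac as the antibody of each library. The versions of BWA and MACS2 are not given in the sources used here. The columns used, as deposited, are the interval, its summit, the fold enrichment there (a ratio over local background), the −log10 p-value and the −log10 q-value. Pooling of replicates is stated in the methods, but there is 1 list for each library, with no −log10 q under 1.30 (q = 0.05), a stricter limit than the methods state. Read depth is not in the files, so the number of peaks stands for it.

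The members, lists and tests were chosen with earlier results of these data known. Groups came from the labels. The regions named are, in each window, that at the 5′ end, up to 5 further regions in the most lists, and up to 3 present in both lists of at least 1 label and in neither list of at least 3. Peaks were ranked by the deposited −log10 p-value. The density ratio is peaks per Mb in the window over peaks per Mb on the rest of chromosome 12 (133 Mb), with 0.5 peaks added to each count. Fragment count and background were solved from fold = (k + 1) / (λ + 1) and the Poisson tail at k, and all lists gave whole counts within 0.05 for 100% of peaks. Tests were exact permutation tests with numpy 2.4.6 and scipy 1.17.1 in Python 3.11.15. The solving of counts and background, the overlap and covered lengths, and the permutation tests in their main form were tried on simulated data. No hg19 annotation was used beyond the coordinates of the 3 gene bodies. The strand of each gene was taken from GENCODE.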

Additional observations from a re-analysis of the deposited data

Results flagged for a closer look

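Within single arms of the study, 2 of 9 comparisons (3 genes, 3 measures) lay in opposite directions with no overlap between the lists, and the differences between the arms were not tested. Among windows of the same length on chromosome 12 with a peak in all 14 lists, 20.1% showed such a pattern in density at the length of the CDK4 window and 20.7% in the rank of the best peak at the length of the HMGA2 window, so both are ordinary for these lists. The log2 density ratio of CDK4 was higher in both TAZ-CAMTA1 lists than in both TAZ4SA lists (mean difference 0.42) and lower in both YAP-TFE3 lists than in both YAP5SA lists (mean difference −0.92). The log2 rank percent of the best HMGA2 peak was higher, that is weaker, in both TAZ-CAMTA1 lists than in both TAZ4SA lists (mean difference 4.72), and lower in both YAP-TFE3 lists than in both YAP5SA lists (mean difference −0.78). The TAZ4SA lists are the longest of the 14, and list length enters the rank percent. These directions hold for the labels and not for the constructs named in the peaks. By those names the CDK4 differences were −0.54 in the TAZ arm, where the lists overlapped, and 1.06 in the YAP arm, where they did not. The HMGA2 differences were then −0.78 and 1, and the lists overlapped in both arms.

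One list stood apart from the other 3 of the active forms. The log2 density ratio of MDM2 was −0.63 in TAZ4SA replicate 1 against −0.17 to −0.09 in the others, a gap of 0.853 of the whole range. Chance marks about 1 in 20 groups in this way, and 18 groups of 4 lists were examined.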

How the results depend on the processing

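No test passed the threshold of 0.05 after adjustment in the main analysis or under any of the 285 alternative values of the 12 tests, and 17 of these turned the sign of a difference. Directions of the density contrasts are therefore not read as results. Turned values, as log2 differences, were as follows. With −log10 q of at least 5, HMGA2 constructs minus empty vector was 0.05 and MDM2 fusions minus active forms was 0.33. With the gene body alone, MDM2 fusions minus active forms was 0.18. With each list cut to its 5721 strongest peaks, constructs minus empty vector was −0.29 at CDK4 and −0.14 at MDM2, and fusions minus active forms was 0.03 at CDK4 and 0.12 at HMGA2. With density as covered bases, constructs minus empty vector was −0.07 at CDK4 and −0.02 at MDM2. With the construct in the names of the peaks as the group, constructs minus empty vector was −0.02 at CDK4 and 0.16 at HMGA2, and fusions minus active forms was 0.26 at CDK4, 0.33 at HMGA2 and 0.82 at MDM2. The cause of these turns was not tested.

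With each list cut to its 5721 strongest peaks, a comparison chosen after seeing the data, the order HMGA2, CDK4, MDM2 by peaks per kb held in 1 list of 14, against 12 of 14 in the full lists. Leaving out each list in turn, CDK4 constructs minus empty vector ranged from 0.07 to 0.51 and CDK4 fusions minus active forms from −0.53 to 0.03, positive without YAP-TFE3 replicate 1. HMGA2 constructs minus empty vector ranged from −0.69 to 0.07, positive without empty vector replicate 2 (0.07), and HMGA2 fusions minus active forms from −0.36 to 0.03, positive without YAP5SA replicate 1 (0.03). MDM2 constructs minus empty vector ranged from 0.35 (without TFE3 replicate 1) to 0.67, and MDM2 fusions minus active forms from −0.50 (without TAZ-CAMTA1 replicate 1) to −0.04 (without YAP-TFE3 replicate 1). The share of variance held by the labels ranged for best rank from 0.28 to 0.83 at CDK4 and 0.47 to 0.81 at MDM2, and for density from 0.58 to 0.77 at CDK4, 0.26 to 0.57 at HMGA2 and 0.28 to 0.79 at MDM2. For HMGA2's best rank it ranged from 0.75 to 0.93, with adjusted p of 0.0683 to 0.881, and over all alternatives from 0.0565 to 0.881. Against chromosomes 1 to 22 and X in place of chromosome 12, the median log2 background ratio moved to −0.06 at CDK4 and −0.26 at HMGA2. These moves were larger than the SD over the 14 lists, and that at MDM2 was smaller than its SD. Of the 14 lists, 0 had a peak over the first base of CDK4 itself. With the replicate number as a block, the labels held 0.88 of the variance of HMGA2's best rank (exact permutation test, p = 0.0435, adjusted p = 0.521), 0 calls were made as without it, and no sign turned. Over 2601 bins of 1000000 bp, the correlation of same-numbered lists between pairs of labels ranged from −0.339 to 0.353 (median 0.00244). It was above 0.1 in 3 of 21 pairs, so most same-numbered lists did not deviate together. The numbers are those of the labels, and the peak names give some lists another number.

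The precision of all values is limited by 2 lists per label and by lists of 5721 to 102009 peaks. Read depth is not in the files, so for a region absent from a short list a lack of acetylation and a lack of depth cannot be told apart. Counts of peaks at MDM2 rest on 1 to 4 peaks a list.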
